A study of Mus musculus with 2 samples.

Results

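Described here are 41 genes of the defence against reactive oxygen, its control, and iron handling. They were chosen by name, with earlier results of these data known. Of these, 39 had a row in a table of 38817 genes, and GLRX2 and GSR had none under those names. The table came from a series on spermidine, a natural polyamine, and the meiotic maturation of porcine oocytes. RNA was taken from 100 oocytes per group, so each library is a pool. One control library and one library labelled SPE, read here as spermidine-treated, could be matched to labelled samples. Both groups carried the genotype WT ICR and the cell type mouse oocyte in the labels, although the table places its genes on pig chromosomes. The table is taken here at its word as a pig table; only the names and numbers of its columns tie it to the labelled samples (the SPE library is written "with SPE" below). Neither the dose nor the time of exposure is stated in the labels used here. Values are FPKM, fragment numbers corrected for transcript length and sequencing depth. The summed FPKM was 249340 in control oocytes and 251829 with SPE. Of these sums, 80978 and 77892 FPKM lay outside 13 mitochondrial and 2 ribosomal RNA genes. Read depth is unknown, and with 1 matched library per group no difference below has a replicate error or a test.

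Superoxide leaks from the respiratory chain and is turned into hydrogen peroxide by superoxide dismutases. Catalase, the glutathione peroxidases and the peroxiredoxins then remove the peroxide, the last of these with electrons from thioredoxin. Free ferrous iron turns peroxide into hydroxyl radicals, so cells keep iron inside ferritin shells built of heavy and light chains. In oocytes, whose mRNA store is laid down before maturation, these systems draw on maternal transcripts and on glutathione made during maturation.

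The libraries had the profile of oocytes. All 15 oocyte markers searched were above 0 in either library, as were 45.4% of all genes in the table. Of the 15, 13 had a mean of 1 FPKM or more. They summed to 2832 FPKM in control oocytes and 2682 FPKM with SPE over all 15. OOSP2 was the highest, at 904 FPKM in control oocytes and 730.3 FPKM with SPE. The 24 granulosa and cumulus markers found summed to 30.1 and 12.6 FPKM, and 8 of them, AMH, LHCGR and NR5A1 included, were listed at 0 in both. Theca, stroma and endothelial markers (13 found) summed to 0.731 and 0.545 FPKM, and 7 of them were at 0 in both. Blood and immune markers (16 found) summed to 0.758 and 0.655 FPKM, with 11 at 0 in both, HBB and CSF1R among them. In such pools, fewer cells of a type and less RNA per cell cannot be told apart.

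Among the antioxidant and iron-handling genes, a single transcript dominated. FTL, the ferritin light chain, was at 499 FPKM in control oocytes and 463 FPKM with SPE, which was 81.6% and 82.0% of the summed FPKM of all 39 genes. It ranked 18 and 21 among 38802 genes outside the mitochondrial chromosome and ribosomal RNA. The other 38 genes together summed to 112 and 102 FPKM. Of the 39 genes, 16 reached a mean of 1 FPKM and are called measured below. All 16 reached 1 FPKM in both libraries, so none passed the filter through one library alone, and 12 of them lay on a locus that no other gene of the table overlapped. A further 16 had some signal below that mean, and 7 were listed at 0 in both libraries. No absence is read from any of these zeros. The lowest measured gene had a mean of 1.17 FPKM and the highest unmeasured one 0.732 FPKM.

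**Figure D1:**
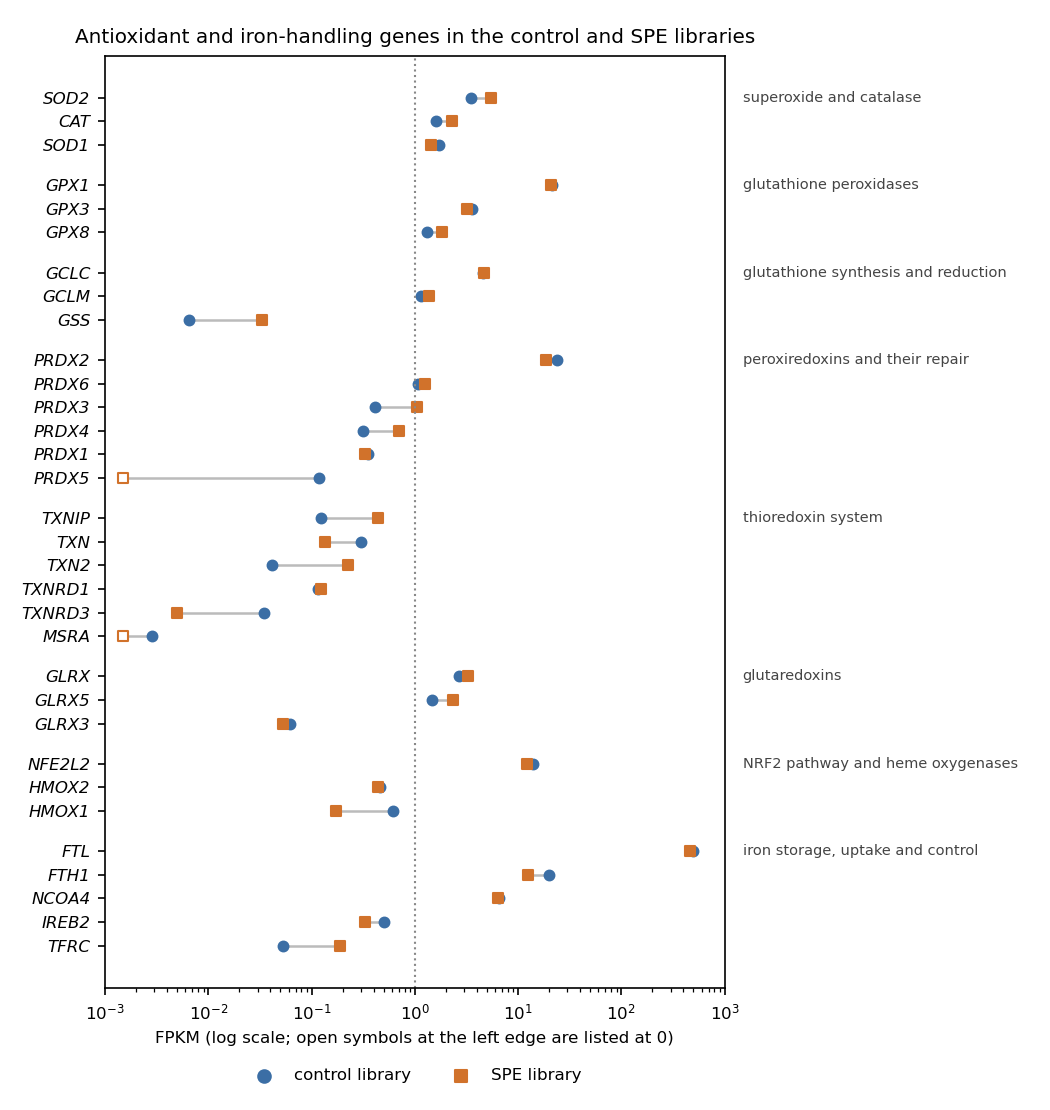
FPKM (log scale) of the 32 genes above 0 in either library, grouped by role; circles are the control library, squares the SPE library, and the dotted line is 1 FPKM. FTL stands far to the right at 499 and 463 FPKM, 4 other genes have both values between 10 and 30 FPKM, and the thioredoxin system lies wholly below 1 FPKM.

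None of the 16 measured genes differed by 2-fold between the libraries on the log2(FPKM + 1) scale. The background over all 4391 genes past the same filter was 2.85% for higher and 2.14% for lower values with SPE at that size. The 16 genes split evenly, 8 higher and 8 lower, and their median log2 ratio was -0.004 against -0.04 for all 4391. Scaled to genes outside the mitochondrial chromosome and ribosomal RNA, the split was 10 higher and 6 lower. Ratios ran from -0.64 for FTH1 to 0.51 for SOD2. At the smaller size of 1.5-fold, 1 of the 16 was lower (background 5.67%) and 0 were higher (background 7.54%). These shares are near the background and show nothing particular to the genes.

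The direction differed between high and low genes. All 5 genes with a mean of 10 FPKM or more were lower with SPE as deposited, and 4 of them when libraries were scaled to genes outside the mitochondrial chromosome and ribosomal RNA. Of the 1097 genes at that level, 64.6% and 54.5% were lower. Of the 11 genes between 1 and 10 FPKM, 8 were higher and 3 lower, against 47.6% higher among 3294 genes of that level. The medians were -0.20 for the 5 genes and 0.13 for the 11, and -0.08 and -0.02 for all genes of each level.

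**Figure D2:**
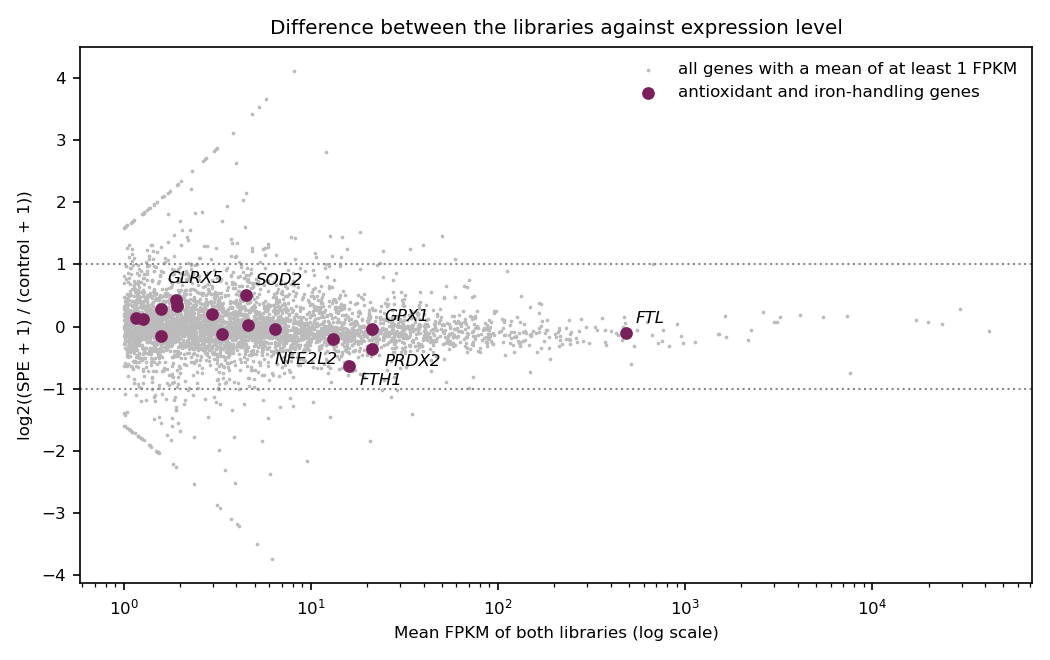
Log2 ratio of SPE to control (pseudocount of 1 FPKM) against the mean FPKM of both libraries (log scale) for 4391 genes (grey) and the 16 measured antioxidant and iron-handling genes (purple); dotted lines mark 2-fold. The purple points all lie between the lines, from -0.64 for FTH1 to 0.51 for SOD2.

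Iron genes held both the highest level and the largest measured difference. FTH1, the ferritin heavy chain that oxidises iron for storage, was at 19.8 FPKM in control oocytes and 12.4 FPKM with SPE (log2 ratio -0.64). It was the 1 measured gene past 1.5-fold as reported, but not with a pseudocount of 5 FPKM (-0.51) or with scaling to genes outside the mitochondrial chromosome and ribosomal RNA (-0.58). With a pseudocount of 0.1 FPKM, SOD2 (0.61) and GLRX5 (0.62) passed 1.5-fold too. The light chain FTL differed much less, with a log2 ratio of -0.11. FTL therefore stood at 25.2 times the FPKM of FTH1 in control oocytes and 37.4 times with SPE. For comparison, log2 ratios of the 641 genes between 10 and 30 FPKM had a robust SD of 0.21, and 9.20% of those genes lay past 1.5-fold in either direction. That spread is across genes in 1 pair of libraries and is not the error of FTH1.

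The model of FTH1 lies on chromosome 2 (8983179 to 8986091, 2.91 kb) and shares its locus with a provisional gene listed at 0 in both libraries. FTL lies alone on chromosome 6 (50095907 to 50097543, 1.64 kb). Neither the build of these positions nor the strand is stated in the table. Ferritin genes have many processed copies in mammalian genomes, and how reads were shared with such copies is not given. The granulosa markers, at the sums given above, went both ways: 10 were lower with SPE, 6 higher and 8 at 0 in both. The 6 that were higher lay below a mean of 1 FPKM, the highest being CYP19A1 at 0.264 and 0.339 FPKM. The 4 with a mean of 1 FPKM or more were all lower, where 55.4% of all 4391 genes were lower. Of these 4, 2 were lower by 2-fold or more (background 2.14%), INHBB and HSD3B1. HSD3B1 (1.90 and 0.111 FPKM) reached 1 FPKM in control oocytes alone, so it passed the filter only through the library where it was high. Most of the difference in the sum of the granulosa markers came from INHBB (10.8 and 1.28 FPKM) and INHBA (9.87 and 5.55 FPKM). The other granulosa markers summed to 9.38 and 5.81 FPKM. The model of INHBB has 349 bases and lies on an unplaced scaffold. The part of the granulosa markers in the difference of FTH1 was not tested.

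NCOA4, the receptor that delivers ferritin to autophagosomes, was at 6.57 and 6.34 FPKM. IREB2, an iron regulatory protein that binds ferritin and transferrin receptor mRNAs, was at 0.502 FPKM in control oocytes and 0.326 FPKM with SPE. TFRC, the transferrin receptor for iron uptake, was near the lower limit of the data, at 0.0530 and 0.190 FPKM. The FPKM of both ferritin chains thus stood far above that of the iron uptake receptor in each library.

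For the enzymes that act first on reactive oxygen, the mitochondrial and the cytosolic dismutase lay on opposite sides of zero. SOD2, the manganese enzyme of the mitochondrial matrix, was at 3.54 FPKM in control oocytes and 5.46 FPKM with SPE (log2 ratio 0.51, chromosome 1, 9475310 to 9485526). SOD1, the copper and zinc enzyme of the cytosol, was at 1.73 and 1.45 FPKM (-0.16). SOD2 was thus at 2.05 times the FPKM of SOD1 in control oocytes and 3.77 times with SPE. CAT, the peroxisomal catalase, was at 1.60 and 2.28 FPKM (0.34), over a locus shared with a pair of provisional genes listed at 0. The extracellular dismutase SOD3 was listed at 0 in both. Between 2 and 10 FPKM the robust SD of all genes was 0.28, and between 1 and 2 FPKM it was 0.32, so these ratios lie within about 2 such units. Here too the spread is across genes in 1 pair of libraries and is not the error of any single ratio.

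Among the glutathione peroxidases, GPX1, the main cytosolic enzyme, was at 21.5 FPKM in control oocytes and 20.9 FPKM with SPE (log2 ratio -0.04). GPX3, known as the secreted plasma enzyme, was at 3.55 and 3.17 FPKM (-0.12). GPX8, a membrane protein of the endoplasmic reticulum, was at 1.32 and 1.83 FPKM (0.29). GPX7, also of the endoplasmic reticulum, and GPX4, which reduces lipid peroxides and protects cells from ferroptosis, were listed at 0 in both. A listed 0 in an FPKM table can be a failed estimate, and GPX4 is a gene that most cells use, so no absence is read from it.

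Glutathione synthesis was represented by the enzyme of its first step. GCLC, the catalytic subunit of glutamate-cysteine ligase, was at 4.54 and 4.67 FPKM (log2 ratio 0.03). GCLM, its modifier subunit, was at 1.16 and 1.36 FPKM (0.13). GSS, which adds glycine in the second step, was at 0.00651 and 0.0334 FPKM, too low to be compared. Levels of the ligase subunits were therefore nearly the same in both libraries.

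The peroxiredoxins were carried by one gene. PRDX2, a cytosolic peroxiredoxin, was at 24.0 FPKM in control oocytes and 18.5 FPKM with SPE (log2 ratio -0.36; chromosome 2, 66509636 to 66513280). PRDX6, which uses glutathione in place of thioredoxin, was at 1.07 and 1.26 FPKM (0.13), over a locus of 211 kb shared with 2 provisional genes. PRDX1, the close cytosolic relative of PRDX2, was at 0.352 and 0.329 FPKM. In each library the FPKM of PRDX2 thus exceeded that of any other peroxiredoxin.

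The remaining peroxiredoxins were below the mean of 1 FPKM. PRDX3, the peroxiredoxin of the mitochondrial matrix, was at 0.413 FPKM in control oocytes and 1.05 FPKM with SPE, a ratio of 2.54 without a pseudocount. PRDX4, of the secretory pathway, was at 0.317 and 0.708 FPKM. Its locus on the X chromosome also holds a provisional gene at 0.355 FPKM in control oocytes and 2.92e-05 FPKM with SPE. The sum of both was 0.672 FPKM in control oocytes and 0.708 FPKM with SPE. FPKM is divided by the length of each transcript, so this sum is not a level of the locus. How reads were divided between these genes was not tested. PRDX5 was at 0.118 FPKM in control oocytes and listed at 0 with SPE. SRXN1, sulfiredoxin, which repairs overoxidised peroxiredoxins, was listed at 0 in both.

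No gene of the thioredoxin system reached the filter, and its 7 genes summed to 0.622 FPKM in control oocytes and 0.928 FPKM with SPE. TXN, cytosolic thioredoxin, was at 0.305 and 0.134 FPKM, and TXN2, its mitochondrial counterpart, at 0.0412 and 0.225 FPKM. TXNRD1, the cytosolic thioredoxin reductase, was at 0.117 and 0.124 FPKM. TXNIP, an inhibitor of thioredoxin, was at 0.122 and 0.439 FPKM, but its locus spans 1648 kb and is shared with 54 other genes of the table. TXNRD3 and MSRA, a repair enzyme of oxidised methionine, were below 0.1 FPKM in both libraries. TXNRD2, the mitochondrial reductase, was listed at 0 in both.

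Glutaredoxins reduce disulfides with glutathione, and some of them carry iron-sulfur clusters. GLRX, the cytosolic enzyme, was at 2.67 FPKM in control oocytes and 3.25 FPKM with SPE (log2 ratio 0.21). GLRX5, which passes iron-sulfur clusters on in mitochondria, was at 1.47 and 2.32 FPKM (0.43). GLRX3 was at 0.0619 and 0.0529 FPKM. Both measured glutaredoxins were thus higher with SPE, by less than 1.5-fold on the scale with the pseudocount.

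NFE2L2 encodes NRF2, the transcription factor that switches on antioxidant genes when its partner KEAP1 lets it go. It was at 14.1 FPKM in control oocytes and 12.1 FPKM with SPE (log2 ratio -0.20), the highest gene of its group. KEAP1 and NQO1, a classical NRF2 target, were listed at 0 in both, which can be a failed estimate. The locus of KEAP1 is shared with 1 other gene. HMOX1, the inducible heme oxygenase that frees iron from heme, was at 0.620 and 0.173 FPKM, a ratio of 0.280 without a pseudocount, over a model on an unplaced scaffold. HMOX2, the constitutive heme oxygenase, was at 0.462 and 0.442 FPKM. The part of the granulosa markers, whose counts and sums are given above, in the difference of HMOX1 was not tested.

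At these low levels, ratios without a pseudocount spread widely. Among 4195 genes with a mean under 1 FPKM and at least 0.1 FPKM in both libraries, 10.3% were higher with SPE by 2-fold or more and 8.96% lower. Of the 9 antioxidant and iron-handling genes in that range, 3 were higher (PRDX3, PRDX4 and TXNIP) and 2 lower (HMOX1 and TXN). PRDX4 and TXNIP are the genes on shared loci described above. TXN2 and TFRC are not counted, because only their SPE values reached 0.1 FPKM.

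Some of the genes for mitochondrial proteins were set side by side after their values were seen. Of 6 found, SOD2, PRDX3, TXN2 and GLRX5 were higher with SPE, PRDX5, which is mitochondrial in part, was lower, and TXNRD2 was listed at 0 in both. Of these, SOD2 and GLRX5 alone were measured at 1 FPKM or more in both libraries. Among all 4391 genes past the filter, 44.6% were higher with SPE. Other genes whose proteins are mitochondrial in part, such as GPX1 and MSRA, both lower with SPE as deposited, were left out. The split therefore depends on the choice of genes. Since this grouping was made after the values were seen, it has no test.

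**Figure D3:**
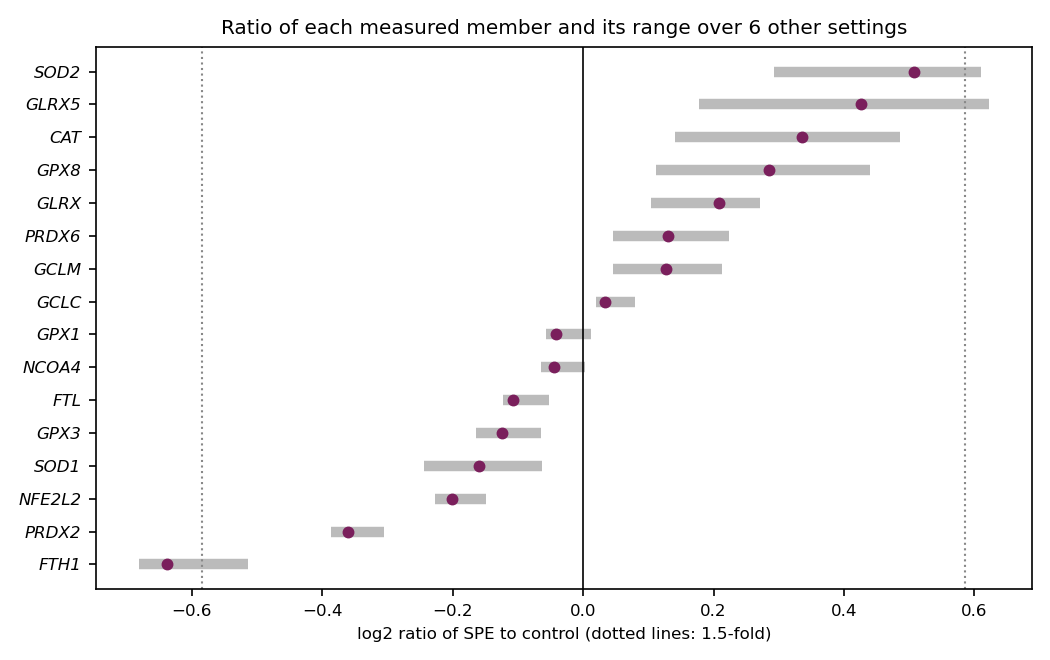
Log2 ratio of SPE to control for the 16 measured genes (points, as reported) with the range of that ratio over the reported setting and 6 other pseudocounts and scalings (grey bars); dotted lines mark 1.5-fold. The bars of GPX1 and NCOA4 reach across zero, and those of FTH1, SOD2 and GLRX5 cross a dotted line.

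The wider pathways were covered by 6 lists of 191 further genes, of which 148 were found and 28 measured. Of the 28, 11 were higher and 17 lower with SPE, against 44.6% higher and 55.4% lower among all 4391 genes, and their median log2 ratio was -0.07. At 1.5-fold or more, 3 were higher (background 7.54%) and 0 lower (background 5.67%). At 2-fold or more, 1 was higher (background 2.85%) and 0 were lower (background 2.14%). The gene past 2-fold was ISCA2, an assembly factor of mitochondrial iron-sulfur clusters, at 0.498 FPKM in control oocytes and 2.65 FPKM with SPE (1.28). It reached 1 FPKM with SPE alone, over a model of 2027 bases.

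In the list for iron transport, iron-sulfur clusters and heme, 9 of 48 genes found were measured, 2 higher and 7 lower, with a median of -0.10. PCBP1, an RNA-binding protein that also serves as an iron chaperone for ferritin, was its highest gene at 1557 and 1436 FPKM (-0.12). ISCU, the scaffold on which clusters are built, was at 3.61 and 2.39 FPKM (-0.44), the most negative of the list, over a locus shared with 2 other genes.

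On the list of NRF2 partners and further targets 4 genes were measured. All 4 were lower with SPE, where 55.4% of all 4391 genes were lower, with a median of -0.28 and none past 1.5-fold. SQSTM1, the autophagy receptor that binds KEAP1, was the highest at 30.5 and 26.1 FPKM (-0.22), and OSGIN2 had the most negative ratio, at 1.90 and 1.15 FPKM (-0.44). CBR3, a carbonyl reductase, had the smallest difference of the 4, at 2.36 and 2.15 FPKM (-0.09). Of 22 found, 18 were below the filter, so most of this list is not covered.

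NADPH feeds both the glutathione and the thioredoxin systems, and its suppliers differed little. Of 5 measured genes, 2 were higher and 3 lower (1 and 4 on the TPM scale), with a median of -0.07. PGD, a dehydrogenase of the pentose phosphate pathway, had the highest mean and the largest ratio, at 3.54 and 3.74 FPKM (0.06). ME2, a mitochondrial malic enzyme, had the most negative ratio, at 1.83 and 1.57 FPKM (-0.14).

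On the list for glutathione transferases and transport, 3 of 19 genes found were measured. On that for ferroptosis and oxidant sources, 2 of 24 were. These 3 and 2 genes were higher with SPE, as were 44.6% of all 4391 genes. Most of both lists was below the filter and is not covered. CHAC1, which breaks glutathione down, was at 4.89 FPKM in control oocytes and 8.93 FPKM with SPE (0.75, past 1.5-fold). It was the highest gene of its list, and GLO1, glyoxalase, had the smallest ratio at 1.61 and 1.94 FPKM (0.17). SAT1, the acetyltransferase of polyamine breakdown, was at 2.75 and 5.06 FPKM (0.69, past 1.5-fold), and ERO1B, an oxidase of the endoplasmic reticulum that makes peroxide as it forms disulfides, was at 3.54 and 5.10 FPKM (0.43).

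The list of thioredoxin-fold proteins, selenoproteins and repair factors had 5 measured genes, 2 higher and 3 lower, with a median of -0.01. Centring on the median of all genes, or scaling outside the mitochondrial chromosome and ribosomal RNA, gave 3 higher and 2 lower. SEPHS2, which makes the selenium donor for selenoproteins such as the glutathione peroxidases, was at 330 and 327 FPKM (-0.01). TXNDC17, a thioredoxin-like protein, was at 5.90 and 8.34 FPKM (0.44), and SESN1, a sestrin, at 9.35 and 6.60 FPKM (-0.45). Its highest gene thus differed the least between the libraries.

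**Figure D4:**
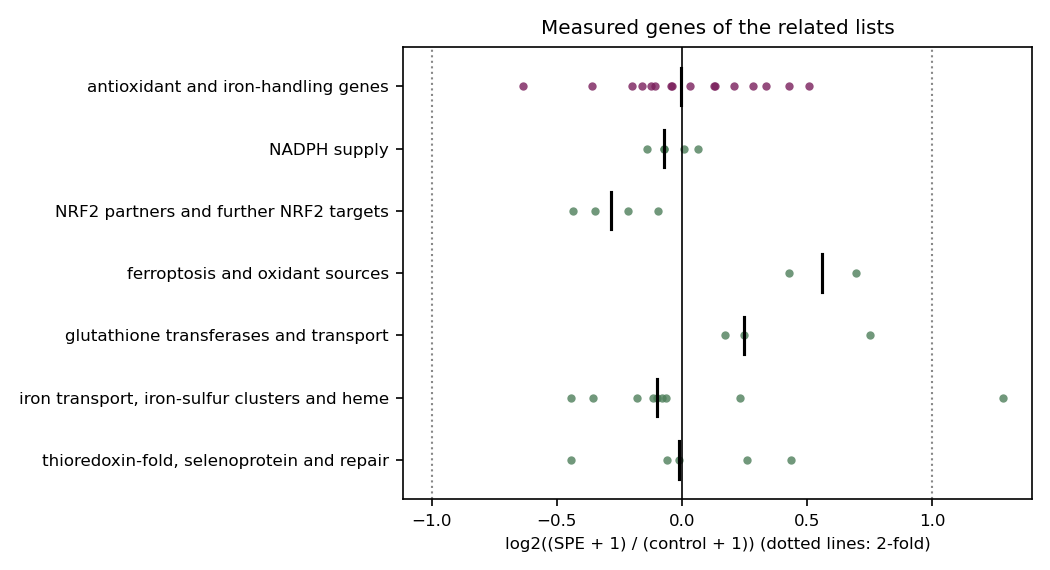
Log2 ratio of SPE to control (pseudocount of 1 FPKM) of each measured gene, for the 16 antioxidant and iron-handling genes and 6 lists of related genes; black ticks are medians and dotted lines mark 2-fold. Of all points, 1 lies past a dotted line, ISCA2 at 1.28 in the iron list.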

How the data were processed

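The values are FPKM as deposited: by the authors' scaling, fragments are divided by transcript length and depth. Libraries, per the labels' protocols, were made with a NEB Next Ultra kit; the sequencer was an Illumina HiSeq. The tools named are Bowtie2 2.2.5 and RSEM with mm9, per the submitters' processing notes, whereas the table has the layout of a Cufflinks tracking file and pig chromosome accessions. Annotation, build and use of strand are not stated. Start positions were raised by 1, as loci were taken to count from 0.

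Columns Con1 and SPD1 were matched to the samples. The table has 2 other columns of values, Con2 and SPD2, which could be tied to no labelled sample and were left out. Log2((SPE + 1) / (control + 1)) was computed after adding 1 FPKM to each value, so differences of low genes are understated. The filter kept genes whose mean reached 1 FPKM. Every member is accounted for. Those at 0.1 FPKM or more in either library are given with values, and of each related list the highest gene and the extremes are named. AMH, LHCGR, NR5A1, HBB, CSF1R, INHBA, INHBB, CYP19A1 and HSD3B1 were named after their values were seen, as were values of GLRX3 and GSS. The members and lists were chosen with earlier results of these data known. Robust SDs are scaled median absolute deviations. FPKM is relative, so a gene group that takes more of a library lowers the others. Calculations were tested on simulated data with large differences, placed in genes of at least 10 FPKM, and with less spread than these libraries show. That checks the code and not how the 2-fold and 1.5-fold rules perform in these data. Python 3.11.15, pandas 2.3.3, numpy 2.4.6 and matplotlib 3.10.9 were used.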

Additional observations from a re-analysis of the deposited data

How the results depend on the processing

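The count of 0 genes past 2-fold was the same under all 10 alternatives. The filter at 10 FPKM and the subsets by locus only drop genes, so they could not change a count of 0. Without the filter, the pseudocount of 1 FPKM still held down the ratios of low genes. The count of 1 gene past 1.5-fold, FTH1, became 3 with a pseudocount of 0.1 FPKM, where SOD2 and GLRX5 joined it. It became 0 with a pseudocount of 5 FPKM, with scaling to genes outside the mitochondrial chromosome and ribosomal RNA, with genes on loci of their own, and with loci of at least 3 kb. The last 2 leave FTH1 out by construction. Its log2 ratio lay between -0.68 and -0.51 over the pseudocounts and scalings. The median ratio of -0.004 moved to -0.20 among the 5 genes of at least 10 FPKM and to 0.13 among the 13 genes on loci of at least 3 kb; the cause was not tested. Under the other alternatives it lay between -0.04 and 0.05. Of 96 recomputed ratios of single genes, 2 changed sign, GPX1 (0.01) and NCOA4 (0.003), both under the scaling outside the mitochondrial chromosome and ribosomal RNA. A further 13 moved by 0.1 or more without a change of sign. No paired analysis was possible because each group had 1 matched library, and no library could be left out. Unknown depth limits all values below 1 FPKM.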
